A study of Mus musculus with 2 samples.

Results

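The Arraystar mouse lncRNA array carried 3117 probes for long intergenic non-coding RNAs (lincRNAs) that are known only by a transcript name, out of 59709 probes other than control and negative probes. They were chosen by their probe identifier, which is the name of 1 transcript followed by a probe number, and no measured value entered the choice. Of these probes, 1217 had names of the form humanlincRNA with a number, 691 had names of the form mouselincRNA with a number, and 1209 had a GenBank accession as their name. The numbered names end in + or -, and 1 number can have a probe for each mark. The array files explain neither these marks, which are read here as strand marks, nor the prefixes human and mouse, so the names are used as labels. Each transcript had 1 probe and each probe had 1 spot, so no member had a second measurement on its array. Another 3457 probes of the same array, also for lincRNAs but named by the exon they lie in, served for comparison together with all probes.

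The study used male BALB/c mice, 8 weeks old according to the sample labels, given daily intraperitoneal injections for 5 days. The paraquat group received 10 mg/kg per day and the control group the same volume of saline, and the right lower lung lobe was taken on day 12 after the first injection. For each group the lungs of 3 mice were mixed into 1 RNA sample and hybridized to 1 array. The mortality of the paraquat group was 70%, and the labels do not say how the 3 lungs were picked. No genetic modification is given for either group. With 1 array per group there was no replicate check and no test could be run, so every difference below is a difference between 2 arrays. The names on the array held 0 of the 22 markers of lung cell types that were looked for, and the tissue could not be checked by them.

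LincRNAs are transcribed from the stretches between protein-coding genes, are often spliced and polyadenylated like mRNAs, and are usually less abundant and more restricted in their expression than mRNAs. Some act in the nucleus on chromatin or on the transcription of neighbouring genes, whereas for most catalogued lincRNAs no function is known. Paraquat is a herbicide that is taken up by the lung, where it cycles between its oxidized and reduced forms, generates superoxide and leaves fibrosis in animals that survive.

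Fewer than 50% of the transcript-named lincRNA probes gave a signal well above background, the mark that Agilent Feature Extraction sets on a spot and that is called detected from here on. After 7 probes with an outlier mark were left out, 3110 were measured. Of these, 1277 (41.1%) were detected with saline and 1174 (37.7%) with paraquat. Over all probes of the array the shares were 62.7% and 58.6%. Both arrays detected 1016 members (32.7%), whereas 1675 (53.9%) were detected on neither.

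The accession-named probes were detected more often than the numbered ones. At least 1 array detected 646 of the GenBank accessions (53.5%), compared with 497 of the humanlincRNA names (40.9%) and 292 of the mouselincRNA names (42.4%). The lincRNA exon probes reached 62.6% and all probes 67.2%. The mark at the end of a name made little difference, with 40.7% of the humanlincRNA probes ending in + and 41.1% of those ending in - detected on at least 1 array. For the mouselincRNA names these shares were 41.1% and 43.8%.

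**Figure D1:**
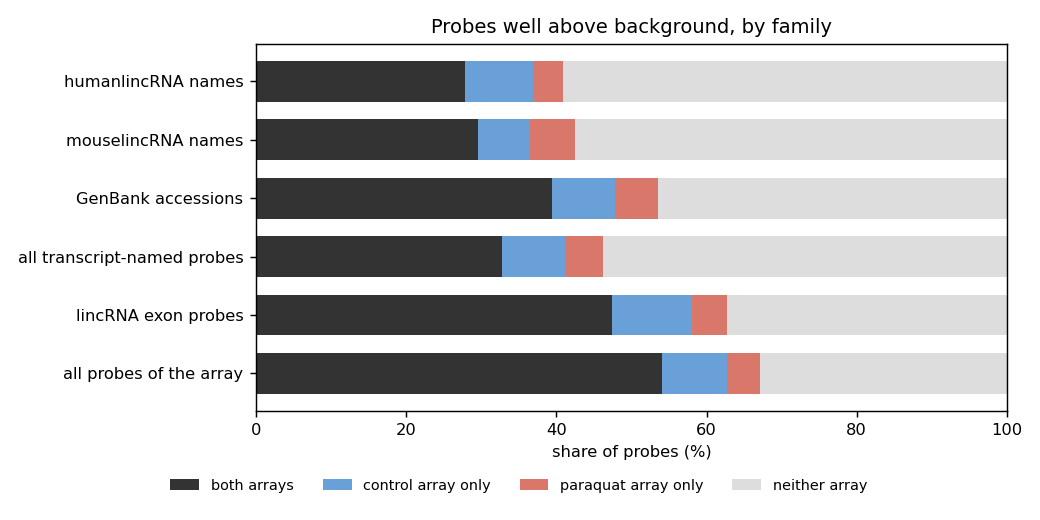
Share of probes (%) in each family that was well above background on both arrays, on the control array only, on the paraquat array only or on neither; each bar sums to all measured probes of the family. The grey portion, detected on neither array, covers 53.9% of all transcript-named probes, and the black portion, detected on both, is longest among them for the GenBank accessions (39.4%).

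Among the 1209 accession-named probes, the accession series gives a hint of the kind of clone behind a transcript. There were 45 series by their leading letters, and 12 of these had at least 40 probes. The AK series, full-length mouse cDNAs of the RIKEN collection, was detected most often of these 12, with 75.3% of its 93 probes detected on at least 1 array. The AV series followed with 66% of 50 probes and the BB series with 62.9% of 70 probes. The lowest shares were 42.6% of the 54 CK probes and 44.4% of the 81 AI probes. Most of the series other than AK hold expressed sequence tags, which are short reads from the end of a clone.

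More members were detected on the control array only, 261 (8.39%), than on the paraquat array only, 158 (5.08%). Over all probes these shares were 8.61% and 4.47%. The order of the members' counts turned with the place on the array, which has 164 columns of spots. In columns 1 to 64, 62 members were detected on the control array only and 108 on the paraquat array only, and in the columns above 80 the counts were 175 and 37. The counts over all probes turned in the same way, with 1521 and 1734 in columns 1 to 64 and 3083 and 697 in the columns above 80. The arrays also differed in their general brightness, and the unnormalized log2 signal had a median of 5.43 for the control array and 4.60 for the paraquat array. The lowest detected signal was 19.4 with saline and 13.2 with paraquat, and no spot was saturated.

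Among the members detected on both arrays, differences were mostly small and centred near 0. The quantity compared is the quantile-normalized log2 signal on the paraquat array minus that on the control array. Over the 1016 members detected on both arrays its median was 0.03 and its SD across members 0.94. It was above 0 for 531 of them (52.3%), and 76.2% lay within 2-fold in either direction. Over all probes detected on both arrays the median was -0.04, the SD 1.08 and the share within 2-fold 71.2%. Before normalization the median was -0.79 for the members and -0.83 for all probes, so a member at the middle of the distribution was dimmer on the paraquat array by about as much as the whole array. The SD describes the spread across transcripts and is no measure of the error between mice. In mixed tissue such as lung, fewer cells of a type and less RNA per cell cannot be told apart.

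By name family the median log2 difference was -0.02 for the 338 humanlincRNA probes, 0.03 for the 203 mouselincRNA probes and 0.09 for the 475 GenBank accessions. The sign of such small medians changed with the scaling, and after a 75th percentile shift they were 0.07, 0.09 and 0.23. The median of all probes moved as well, from -0.04 to 0.09. The GenBank accessions also spread most widely, with 70.9% within 2-fold compared with 80.8% for each of the numbered families.

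**Figure D2:**
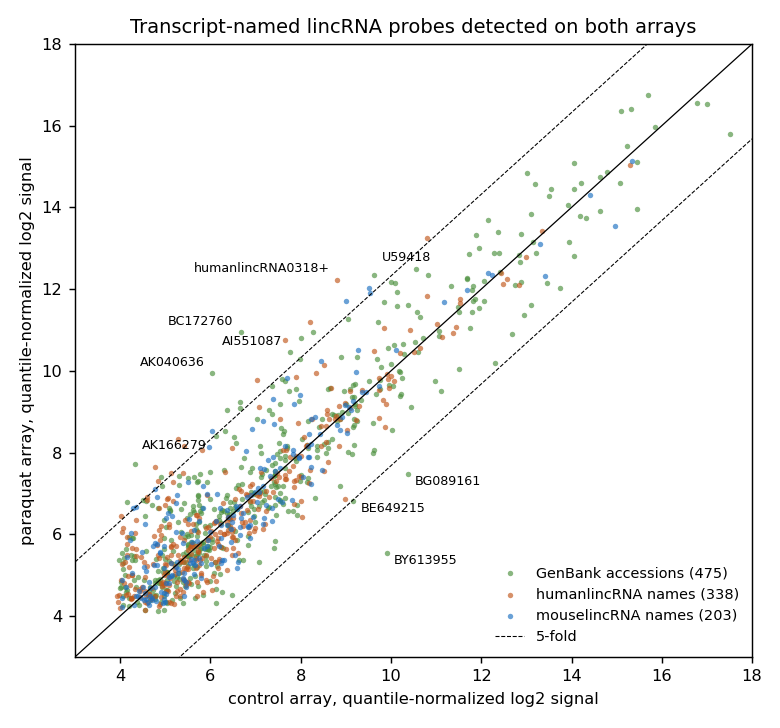
Quantile-normalized log2 signal on the control array (horizontal) and on the paraquat array (vertical) for the 1016 members detected on both arrays, 1 point for each probe, coloured by name family; the solid line marks equal signal and the dashed lines 5-fold. A total of 31 points lie at or above the upper dashed line and 3 at or below the lower one, of which 9 members named in the text carry their names.

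Large differences were mostly in 1 direction. Counting probes detected on at least 1 array, and replacing an undetected signal by the lowest detected signal of its array when that was higher, 51 of 1435 members (3.55%) were at least 5-fold higher on the paraquat array. Over all 40078 probes so counted the share was 3.07%. Only 8 members (0.557%) were at least 5-fold lower, compared with 2.04% of all probes. The share at least 5-fold higher was thus close to that of the whole array, and the share at least 5-fold lower was smaller. With no normalization the split was 12 higher and 37 lower, and all probes shifted in the same way, to 0.951% higher and 6.82% lower. The members' share of lower probes stayed below that of all probes there, at 2.58%.

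Restricting the count to probes detected on both arrays gave 31 members past 5-fold upwards (3.05%, with 2.77% of all probes) and 3 downwards (0.295%, with 1.78% of all probes). At 3-fold, 146 members (10.2%) were higher and 38 (2.65%) lower, where all probes had 8.09% and 6.18%. The lincRNA exon probes had 2.59% higher and 2.08% lower at 5-fold, which was near the split of all probes.

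With only 8 lower members, the counts of lower probes by name family were small. No humanlincRNA probe of 497 passed 5-fold downwards, against 15 (3.02%) that passed it upwards, where all probes had 2.04% and 3.07%. The mouselincRNA names had 14 higher (4.79%) and 3 lower (1.03%) of 292, and the GenBank accessions 22 higher (3.41%) and 5 lower (0.774%) of 646. This split depended on array position, which is described further on. After a correction for it there were 9 higher (1.81%) and 3 lower (0.604%) humanlincRNA names. The mouselincRNA names then had 6 higher and 6 lower (2.05% each), and the GenBank accessions 22 higher (3.41%) and 9 lower (1.39%). All probes had 2.47% higher and 2.76% lower after the correction. At 3-fold, 7 humanlincRNA probes (1.41%), 4 mouselincRNA probes (1.37%) and 27 GenBank accessions (4.18%) were lower, where all probes had 6.18%. In the same order, 45 (9.05%), 33 (11.3%) and 68 (10.5%) were higher, where all probes had 8.09%. Of the 70 detected probes of the AK series, 11 were higher and 3 lower at 3-fold.

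The counts were also taken by signal, since the spot error of a member's log2 difference had a median of 0.29 for the dimmest class and 0.20 for the brightest. The mean log2 signal was below 6 for 431 of the 1016 members detected on both arrays. In this dimmest class 6.96% of the members passed 3-fold upwards and 0.696% downwards, compared with 6.09% and 3.3% of all probes. From 6 to 8 the members had 10.7% and 2.27%, where all probes had 9.02% and 6.79%. The same order of shares was seen among brighter probes. From 8 to 10 they were 14.6% and 1.99% of 151 members, and 8.57% and 7.47% of all probes. Above 10 the shares were 10.3% and 4.76% of 126 members, and 6.1% and 5.25% of all probes. In each class a smaller share of members than of all probes was at least 3-fold lower. From the dimmest class to the brightest these were only 3, 7, 3 and 6 members, and in the brightest class the shares were close. Detected members were also dimmer, with a median control signal of 73.5 compared with 141 over all detected probes. The part of signal in the share of lower members was not tested.

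The members at least 5-fold higher lay mostly on one side of the array. Of the 51, 40 lay in columns 1 to 64, 10 in the columns above 80 and 1 in between, although only 38.9% of the measured members lay in columns 1 to 64. In columns 1 to 64, 9.2% of the detected members were at least 5-fold higher (5.52% of all probes). A further 1.15% were lower by that factor (2.13% of all probes). In the columns above 80 the share of higher members was 1.12% (1.54% of all probes). The median log2 difference was 0.86 for the 265 members detected on both arrays in columns 1 to 64 and -0.12 for the 677 in the columns above 80. Over all probes these medians were 0.36 and -0.20. The same unevenness appeared in detection, since on the control array 27% of the members in columns 1 to 64 were detected and 52.9% of those in the columns above 80. On the paraquat array the shares were 30.8% and 44.3%. Over all probes they were 54.1% and 69.8% on the control array and 55% and 62% on the paraquat array.

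The position of a probe has no relation to its transcript that the files give, and the part that array position has in any single difference was not tested. A position-corrected value is therefore also given for members named below, in which the median difference among the 50 closest detected neighbours with a comparable signal was subtracted. For a probe detected on 1 array only, the same median was subtracted from its bound. That median includes differences as measured of neighbours detected on 1 array only, so the corrected value is no strict bound. After this correction 24 of the 51 higher members and 6 of the 8 lower ones were still at least 5-fold different. The 31 higher and 3 lower members detected on both arrays kept their direction. For the 20 higher and 5 lower members detected on 1 array, the corrected value was cut off at 0. It could therefore not change direction. Over all members the corrected counts were 37 higher (2.58%) and 18 lower (1.25%), where all probes had 2.47% and 2.76%. The share of lower members was smaller than that of all probes here too, and in the columns above 80 alone it was 0.337% next to 1.98%.

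**Figure D3:**
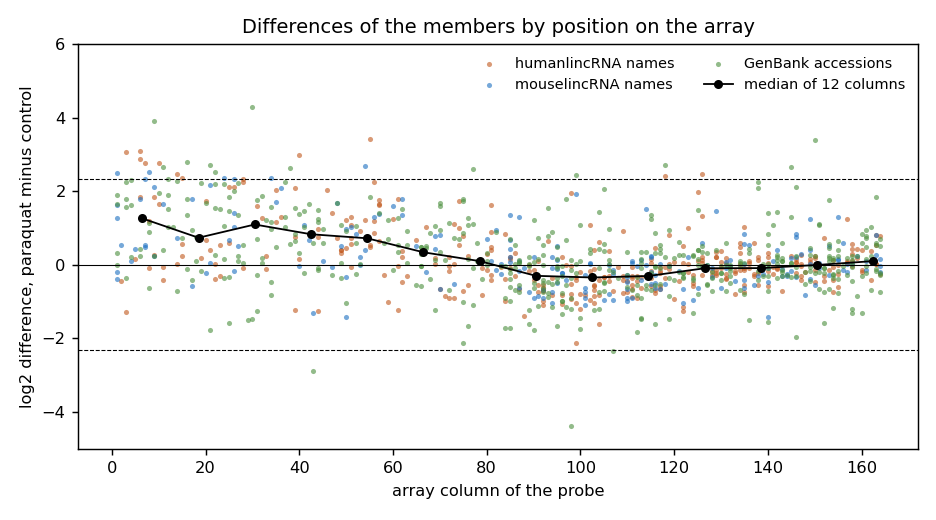
Log2 difference, paraquat minus control, of the 1016 members detected on both arrays (vertical) against the column of the probe on the array (horizontal), coloured by name family; black points joined by a line are medians over 12 columns and the dashed lines mark 5-fold. The medians lie above 0 on the left side of the array and near or below 0 in the columns above 80.

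U59418 and AI551087 are 2 members that also stand in the study's list of changed lncRNAs, where each is paired with a gene. That list was made from these same arrays and is no independent evidence of their direction. The list pairs U59418 with Dio3, the type 3 deiodinase that inactivates thyroid hormone and is encoded at an imprinted locus. The unnormalized signal of U59418 was 1032 ± 103 with saline and 4552 ± 455 with paraquat, where ± is the error that Feature Extraction gives for a single spot. Its normalized log2 difference was 2.72, or 6.58-fold, and 2.96 after the position correction. It lay in column 118, on the side of the array where few members were higher. The ratio before normalization was 4.41-fold, and the log2 difference lay between 2.14 and 3.06 over 10 alternatives.

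AI551087 is paired by the same list with Ankrd36, a gene for an ankyrin repeat protein. Its signal was 298 ± 30.1 with saline and 1116 ± 112 with paraquat, a log2 difference of 2.70 or 6.5-fold. In contrast to U59418, it lay in column 21, and after the position correction the difference was 2.14, or 4.41-fold. It was at least 5-fold higher in 7 of 10 alternatives, and U59418 in 9 of 10.

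BC172760, a full-length clone of the Mammalian Gene Collection, had the largest rise in signal among members detected on both arrays. It went from 140.0 ± 14.5 with saline to 1627 ± 163 with paraquat, a log2 difference of 4.28 or 19.4-fold. Lying in column 30, it was 9.92-fold higher after the position correction. The RIKEN cDNA AK040636 came next, with signals of 88.7 ± 9.68 and 768 ± 76.9. Its log2 difference was 3.92, or 15.2-fold, and 11.8-fold after the correction. These accessions carry no gene symbol in the tables used here, and their function is not described.

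AK166279 had the largest rise in the columns above 80 among members detected on both arrays. Its control signal was 26.1 ± 4.67, near the lower limit of detection, and its paraquat signal was 154 ± 15.7. The log2 difference was 3.40, or 10.5-fold, and 3.61 after the position correction. It depended most on how background was treated, with a log2 difference of 1.81 under a normexp background correction. The expressed sequence tag DV074327 had signals of 349 ± 35.1 and 1451 ± 145, with a log2 difference of 2.80 and a corrected one of 2.37.

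Among the humanlincRNA names, humanlincRNA0318+ had the largest difference. Its signal was 609.7 ± 61.1 with saline and 4165 ± 416 with paraquat, a log2 difference of 3.41 or 10.6-fold. The correction left it at 3.50. The humanlincRNA1739+ probe gave 277 ± 28.0 and 1399.5 ± 140, with a log2 difference of 3.10 that became 2.90. The signals of humanlincRNA1995- were 403 ± 40.5 and 1949 ± 195, and its log2 difference of 2.99 became 2.81. All 3 lay within columns 1 to 64, in columns 55, 6 and 40, and their differences changed little when their neighbours on the array were taken into account.

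Dimmer humanlincRNA names near the same edge of the array as humanlincRNA1739+ held their value less well. The signals of humanlincRNA0246- were 51.8 ± 6.47 and 237 ± 24.0, a log2 difference of 3.06 that fell to 1.90 after the correction. Those of humanlincRNA0289+ were 36.0 ± 5.29 and 145 ± 14.9, and its log2 difference went from 2.88 to 1.60. The probes lay in columns 3 and 6, and both passed 5-fold in 6 of 10 alternatives. In column 7, humanlincRNA0903+ had signals of 57.1 ± 6.90 and 211 ± 21.4 and log2 differences of 2.76 and, corrected, 2.32.

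**Figure D4:**
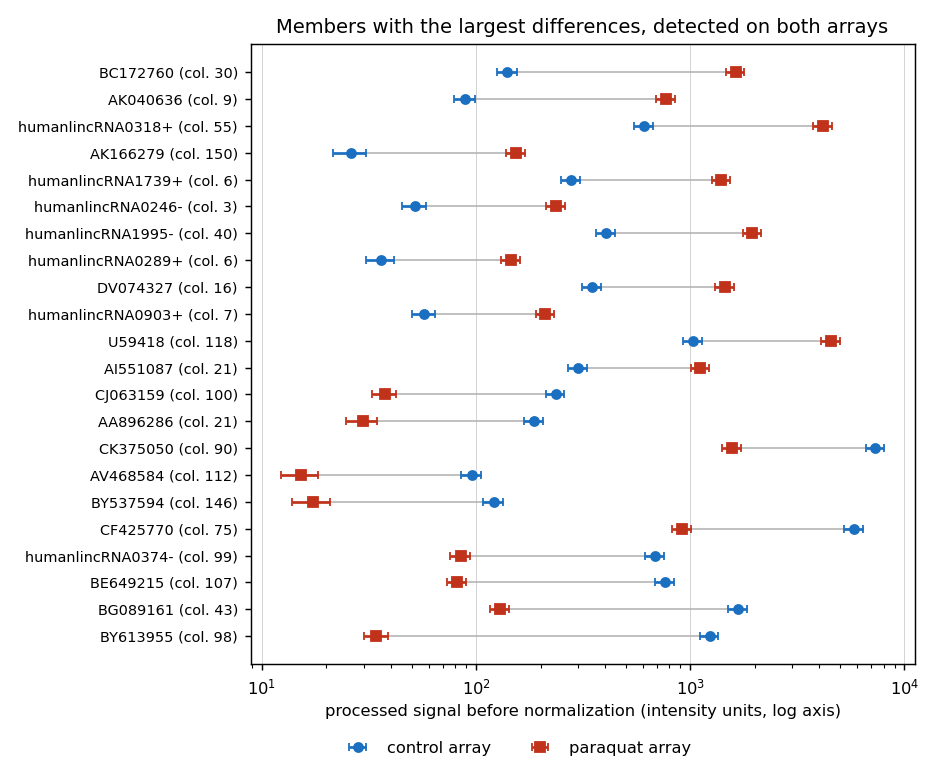
Processed signal before normalization on the control array (blue circles) and the paraquat array (red squares) of the 22 named members detected on both arrays, on a log axis in intensity units; bars are the Feature Extraction error of the single spot and the array column of each probe is given with its name. The upper 12 were brighter and the lower 10 dimmer on the paraquat array, each by far more than the bars, which do not cover the error between mice.

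A further 20 of the 51 higher members were detected on the paraquat array only, so that their difference is a lower bound. The mouselincRNA1592+ probe had a signal of 16.2 ± 4.19 with saline and 213 ± 21.5 with paraquat, and was at least 19.3-fold higher. AA089093 went from 19.1 ± 4.32 to 207 ± 20.9 and was at least 18.7-fold higher. On the other side of the array, BE849881 in column 118 had signals of 6.84 ± 3.93 and 148 ± 15.1 and was at least 13.5-fold higher. The control signals of these probes were not well above background and could be lower than the values given. The bounds depended on how background was treated. Under the normexp background correction the log2 differences were 2.27 for mouselincRNA1592+, 2.18 for AA089093 and 1.91 for BE849881, each below 5-fold.

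For CJ243031 in column 128 the signals were 17.8 ± 4.26 and 136 ± 13.9, and it was at least 12.4-fold higher. AK039249 had the same bound of at least 12.4-fold with signals of 8.53 ± 3.96 and 135 ± 13.9. It lay in column 1, however, and its bound became 4.06-fold after the position correction. The corrected values of the others were 12.1-fold for mouselincRNA1592+, 15.7-fold for AA089093, 18.4-fold for BE849881 and 14.4-fold for CJ243031. With normexp the log2 differences of CJ243031 and AK039249 were 1.70 and 1.66, also below 5-fold. Of the 5 members named here for their bound, BE849881 and CJ243031 were the ones outside the left side of the array.

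The 10 members at least 5-fold higher in the columns above 80 may be listed apart, since their neighbours on the array tended to be lower. They were U59418, BE849881, CJ243031, AK166279, BC156060, AK156563, mouselincRNA0044-, humanlincRNA1590+, humanlincRNA2313- and humanlincRNA0199-. All 10 kept at least 5-fold after the position correction. BC156060 went from 113 ± 11.9 to 389 ± 39.1 with a log2 difference of 2.66, and AK156563 had 138 ± 14.3 and 402 ± 40.3 with a log2 difference of 2.43. This list and its position were chosen after the values were seen.

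BY613955 had the largest fall in signal among members detected on both arrays. Its signal was 1232 ± 123 with saline and 34.3 ± 4.37 with paraquat, a log2 difference of -4.37 or 20.7-fold lower. After the position correction it was 10.9-fold lower. BG089161 followed, with signals of 1676 ± 168 and 129.9 ± 13.3, a log2 difference of -2.89 or 7.41-fold lower, and -2.81 corrected. These 2 accessions were at least 5-fold lower in every alternative that gave them a value.

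The third, BE649215, was at the edge of 5-fold, at 765 ± 76.6 and 81.6 ± 8.65 with a log2 difference of -2.35. After the correction its difference was -1.69. The remaining 7 named falls were between 3-fold and 5-fold, and the position correction took humanlincRNA0374-, AV468584, CK375050 and CJ063159 below 3-fold. The signal of humanlincRNA0374-, the only numbered name among them, was 686 ± 68.7 with saline and 84.9 ± 8.92 with paraquat. Its log2 difference was -2.13, or 4.37-fold lower, and -1.49, or 2.82-fold lower, after the correction.

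The bright expressed sequence tags CF425770 and CK375050 were lower as well. CF425770 went from 5809.8 ± 581 to 917 ± 91.8 (log2 difference -2.12, corrected -2.11), and CK375050 from 7326 ± 733 to 1564 ± 156 (log2 difference -1.77, corrected -1.44). Both were far above background on both arrays. The 4 dimmer ones, BY537594, AV468584, AA896286 and CJ063159, had control signals between 95.5 and 235 and paraquat signals between 15.3 and 37.5, with log2 differences from -1.95 to -1.74. After the correction these were -1.72 for BY537594, -1.20 for AV468584, -2.18 for AA896286 and -1.32 for CJ063159. With normexp they were -0.76, -0.60, -1.01 and -1.07 in the same order.

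Another 5 members were at least 5-fold lower with a signal detected on the control array only. The largest bounds were those of mouselincRNA0401+, with signals of 289.8 ± 37.1 and 2.97 ± 2.98 and at least 12.4-fold lower, and mouselincRNA1218+, with signals of 233 ± 35.1 and 2.92 ± 2.94 and at least 9.95-fold lower. They lay in columns 44 and 1, where most members were higher on the paraquat array. CV675929 (167 ± 17.2 and 7.28 ± 3.0) was at least 7.17-fold lower. The signals of mouselincRNA1348+ were 161 ± 16.6 and 3.65 ± 3.66, at least 6.91-fold lower. AK079567, with 116 ± 12.3 and 11.9 ± 3.03, was at least 5.03-fold lower. The position-corrected values, which are no strict bounds, were 17.5-fold lower for mouselincRNA0401+, 18.5-fold for mouselincRNA1218+, 13.1-fold for mouselincRNA1348+, 6.51-fold for CV675929 and 4.11-fold for AK079567. With normexp the log2 differences were -1.68 for mouselincRNA0401+, -1.41 for mouselincRNA1218+, -1.45 for mouselincRNA1348+, -1.32 for CV675929 and -0.87 for AK079567. None of these reached 5-fold.

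Since 943 numbers of the humanlincRNA and mouselincRNA families had a measured probe for each strand mark, the 2 probes of a locus could be set against each other, with the marks taken as strands. Both probes were detected on at least 1 array for 170 loci (18%), only the + probe for 215, only the - probe for 228, and neither for 330. The - probe was detected at 44.2% of the loci whose + probe was detected and at 40.9% of the others. The families went opposite ways in this, with 45.7% against 37.9% for the humanlincRNA names and 41.3% against 46.2% for the mouselincRNA names. Of the 1723 loci with lincRNA exon probes in both directions, both were detected at 39.8%.

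For 87 loci both probes were detected on both arrays, and their differences between paraquat and control were set against each other. Pearson's r across the 87 loci was 0.01 and Spearman's rho -0.03, and after the position correction they were 0.14 and 0.03. For 403 such loci of the lincRNA exon probes r and rho were 0.11 and 0.15, and 0.18 and 0.20 after the correction. By family Pearson's r was 0.13 over 56 humanlincRNA loci and -0.19 over 31 mouselincRNA loci, and 0.22 and -0.03 after the correction. These are descriptions of 1 pair of arrays, and all points share the arrays and their normalization. The 2 differences had the same sign at 45 of 87 loci. At 28 loci 1 probe alone differed by at least 2-fold and at 54 loci neither did.

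Both probes were at least 2-fold higher at 4 of the 87 loci, all of them humanlincRNA, and both at least 2-fold lower at 0. Of the 403 loci of lincRNA exon probes, both were higher at 7 and both lower at 8. At humanlincRNA0318 the - probe went from 1194 to 1736 with a log2 difference of 1.19, next to 3.41 for the + probe. At humanlincRNA1739 the - probe had a log2 difference of 1.01, next to 3.10 for the + probe, with signals of only 23.7 and 27.7. At humanlincRNA0324 it was the - probe that differed more, from 329 to 714 with a log2 difference of 1.94, next to 1.23. The fourth, humanlincRNA0312, had 1.30 and 1.20 with signals below 60 throughout. After the position correction the + and - differences were 3.50 and 1.24 at humanlincRNA0318 and 2.90 and 1.55 at humanlincRNA1739. They were 0.77 and 2.68 at humanlincRNA0324 and 0.98 and 0.68 at humanlincRNA0312, so these loci no longer had both probes past 2-fold.

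The opposite pattern, with both differences beyond 2-fold, occurred at 1 of the 87 loci, and at 7 of the 403 loci of lincRNA exon probes. At humanlincRNA0289 the + probe went from 36.0 to 145 (log2 difference 2.88) and the - probe from 133 to 34.8 (log2 difference -1.04). The probes lay in columns 6 and 103, and after the position correction the differences were 1.60 and -0.40. A change of the detected probe, from 1 mark on the control array to the other on the paraquat array, was seen at 6 of the 943 loci. Their signals were low, and 5 of the 6 changed from - to +. Among the 1723 loci of lincRNA exon probes, 9 changed from - to + and 6 from + to -. For the numbered names the following holds. The + probes of the 5 that changed from - to + lay in columns 19, 27, 47, 56 and 123, and their - probes in columns 13, 58, 103, 148 and 157. The part of array position in this direction was not tested. At humanlincRNA0183 the bound of the - probe was 0.00, so no fall was measured there. The clearest change was that of mouselincRNA1199, with 63.3 and 3.86 for the - probe and 13.4 and 26.0 for the + probe.

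**Figure D5:**
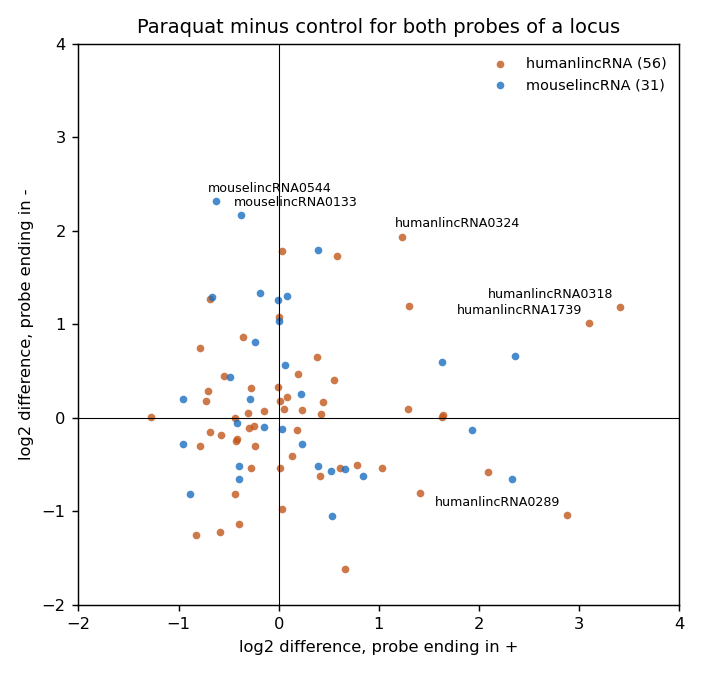
Log2 difference, paraquat minus control, of the probe ending in + (horizontal) and of the probe ending in - (vertical) for the 87 loci at which both probes were detected on both arrays, 56 humanlincRNA (orange) and 31 mouselincRNA (blue). Pearson's r across all points was 0.01, and 6 loci with a large difference on 1 or both strands carry their names.

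Loci with neighbouring numbers were compared in the same way, a comparison chosen after the values were seen. Among mouselincRNA probes of the same strand mark, numbers that were 1 apart had differences with a Pearson's r of 0.59 over 12 pairs, and numbers 2 apart had 0.76 over 18 pairs. After the position correction these were 0.40 and 0.41. Among humanlincRNA probes the values were 0.02 over 27 pairs and -0.10 over 17 pairs, and -0.03 and -0.10 after the correction. The pairs are few and share probes, and the files do not state what the order of the numbers stands for. An example is mouselincRNA0771-, which went from 89.5 to 271 (log2 difference 2.49), and mouselincRNA0772-, from 692 to 2829 (log2 difference 2.69). They lay in columns 1 and 54, on the side where most members were higher, and their corrected differences were 1.90 and 2.40.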

How the data were processed

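Total RNA of 2 lung pools was depleted of rRNA, amplified with random primers, labelled with Cy3 and hybridized to 1-colour Arraystar mouse lncRNA arrays designed on mm9. The deposited array files hold each spot's intensity as given by Agilent Feature Extraction 10.7.3.1, which subtracts the background and corrects trends across the slide but does not scale the arrays to each other. They also deposited values on a log2 scale, quantile-normalized in GeneSpring GX 11.5.1, for 14331 probes, of which 947 are members. Over these members their ranks matched the intensities (rank correlation 1.000 on each array), and they served as an alternative. The authors' list of lncRNA and gene pairs was read for names only. No column of values stayed unassigned (0).

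From the intensities, outlier-marked spots were left out, repeated spots were averaged on the log2 scale, followed by quantile normalization of the arrays over 59625 probes. A probe was called detected when Feature Extraction marked it as well above background. Differences are given as paraquat minus control on the log2 scale. For a probe detected on 1 array only, the undetected signal was raised to the lowest detected signal of that array, giving a lower bound. No test was run on groups of 1 array, and the number of arrays limits the precision. The 15 probes spotted repeatedly gave an SD of the difference between single spots of 0.12 to 1.12 (median 0.18) on the log2 scale. The median error of a member's difference from the Feature Extraction spot errors was 0.22.

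Named are U59418 and AI551087, up to 10 rises and 10 falls past 3-fold with the largest difference among members detected on both arrays, and up to 5 in each direction with the largest bound past 5-fold. Named outside this rule, after their values were seen, are the members at least 5-fold higher in the columns above 80, the strand pairs and the neighbouring numbers. The members, lists and alternatives were chosen with earlier results of these data known. Of the member names, 0 matched the RefSeq or gene name tables, so the lists of imprinted, dosage compensation, nuclear body, snoRNA and miRNA host, Hox, developmental and stress lncRNAs had 0 members. No transcript had a second member probe, so probes of 1 transcript could not be compared.

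In data simulated for the paraquat minus control comparison, 200 of 59625 probes were changed by 3 on the log2 scale, and 99% were recovered at 5-fold with 0 false calls. The changed probes were all bright on both arrays, and the simulated noise was set by hand and had no trend with array position. The simulation therefore cannot tell how well changes of dim probes are recovered or how many false calls the real arrays hold. Alternatives were loess, shifts by the median or the 75th percentile, quantile normalization over detected probes, no normalization, normexp (offset 50), background left in, the signal before the multiplicative detrend step, the position correction, the columns above 80 or 1 to 64 alone, signals as measured, both-array detection, the authors' values, and thresholds of 3-fold and 2-fold. The tools were R 4.3.3, limma 3.58.1, Python 3.11.15, pandas 2.3.3, numpy 2.4.6, scipy 1.17.1 and matplotlib 3.10.9.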

Additional observations from a re-analysis of the deposited data

How the results depend on the processing

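Of the 32 named members, 0 changed direction in 319 values under alternatives, and 115 of these values moved by more than the spot error of the difference. All but U59418 and AI551087 were picked for a large difference on these same arrays, and a bound cannot pass 0. The direction was thus largely fixed by the choice of members, and its constancy is no independent evidence. BC172760, AK040636, humanlincRNA0318+, humanlincRNA1739+, BY613955 and BG089161 were at least 5-fold different under every alternative that gave a value. The counts of 51 higher and 8 lower members became 12 and 37 with no normalization (median log2 difference -0.79), 10 and 2 with normexp, 16 and 2 with no background subtraction, 113 and 54 with signals as measured, 31 and 3 over members detected on both arrays, 26 and 2 in the authors' values, 146 and 38 at 3-fold and 262 and 119 at 2-fold. The position correction gave 37 and 18. The columns above 80 gave 10 and 3, and columns 1 to 64 gave 40 and 5 with a median of 0.86. The shares over all probes moved as well. With normexp 0.697% of members and 0.863% of all probes were higher, and 0.139% and 0.594% lower. With no background subtraction these shares were 1.11% and 1.06% higher, and 0.139% and 0.778% lower. With signals as measured they were 7.87% and 5.54% higher, and 3.76% and 4.56% lower. In the authors' values they were 2.77% and 2.63% higher, and 0.213% and 1.02% lower. The shifts by the 75th percentile and the median, loess, quantile normalization over detected probes and the signal before the detrend step stayed within 1.5 times, between 41 and 62 higher and 6 and 7 lower. The cause of these changes was not tested. No paired analysis was possible because each group had 1 array. Signal over background is the limit for the 1675 members detected on neither array, whose differences are unknown.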
